A study of Oryza sativa with 35 samples.

Results

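The genes described here encode the light-harvesting antenna of photosystem I in rice. They are the 5 loci of the deposited table that hold the Lhca1 to Lhca4 genes and the Lhca5-type gene, chosen by their identity as Lhca genes and not by any measured value, out of 57778 loci. They are Lhca1 (LOC_Os06g21590, chromosome 6), Lhca2 (LOC_Os07g38960, chromosome 7), Lhca3 (LOC_Os02g10390, chromosome 2), Lhca4 (LOC_Os08g33820, chromosome 8) and Lhca5 (LOC_Os02g52650, chromosome 2). The annotation deposited with the values calls each of them a light-harvesting complex I chlorophyll a/b binding protein with the matching number. All 5 passed the filter on low values, a mean FPKM (fragments scaled to locus length and library depth) of at least 0.5 over the libraries, which kept 22961 loci for testing.

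Lhca proteins bind chlorophyll and pass the light energy they absorb to the reaction centre of photosystem I, which drives electrons from plastocyanin to ferredoxin. In the structures known from pea and Arabidopsis, they form a crescent along the side of the core, in which Lhca1 is paired with Lhca4 and Lhca2 with Lhca3. Lhca5 is far less abundant, and in Arabidopsis it helps to attach photosystem I to the chloroplast NDH complex. The proteins are encoded in the nucleus, made in the cytosol and imported into the chloroplast, and their transcripts are known to follow light, the clock and the GLK transcription factors.

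RNA-Seq was performed on whole plants of 9311, an indica cultivar sensitive to chilling, and of DC90. DC90 is a tolerant line that carries the wild rice locus CTS-12 in the 9311 background. The sample titles name W9 and not DC90, and W9 was taken here as DC90. Seedlings grown for 30 days under normal conditions were harvested before treatment (0 h), then after 12, 24 and 72 h in the cold at 10/8 °C (day/night), and after 12 and 24 h of recovery under normal conditions, which are the 84 and 96 h timepoints. Clock hours are not given in the sources used here. By elapsed time, the 12 and 84 h timepoints fall on the opposite side of the day from all others. Time of day and treatment therefore cannot be told apart in a comparison of either with 0 or 72 h. Each genotype had 3 libraries at each timepoint, except 9311 at 84 h with 2 (replicates 1 and 3), giving 35 libraries in 12 groups.

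Between 28004101 and 68927044 reads were counted per library, and no libraries of a group held identical values. The lowest count of a member in any library was 132 for Lhca5, 448 for Lhca4 and at least 1735 for the other members, and replicates of a group differed over all loci by 78.2 to 514.3 times the sampling noise (chi-square per degree of freedom). A single fit of all 12 groups to the counts was made for the quasi-likelihood test of edgeR, and every log2 fold change below is given with its standard error and a Benjamini-Hochberg adjusted p over the 22961 loci. A gene is called changed at an adjusted p of at most 0.05. It is called a DEG by the thresholds of the study's methods, which ask for a log2 fold change of 2 or more in either direction with an adjusted p no higher than 0.001. The 5 responses of a genotype share the 0 h libraries as their control. How reads on overlapping or near-identical loci were assigned, and whether strand was used, is not given in the sources used here.

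Before chilling, Lhca1 had the highest level per length of the family, with 2683 ± 180.0 FPKM (SD, n = 3) in 9311 and 3675 ± 107 in DC90. Lhca2, Lhca3 and Lhca4 were close to each other, with 1194 ± 99.6, 1248 ± 293 and 1161 ± 126 FPKM in 9311 and 1678 ± 244, 1576 ± 647 and 1671 ± 681 FPKM in DC90. Their ranges overlapped within each genotype. Lhca5 stood far below them, at 21.5 ± 6.86 FPKM in 9311 and 27.5 ± 6.57 FPKM in DC90. Lhca1 made up 42.6% ± 1.21 of the summed FPKM of the family in 9311 at 0 h and Lhca5 0.338% ± 0.0898. The 5 genes together took 1.01% ± 0.104 of all counted reads in 9311 and 1.36% ± 0.252 in DC90.

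**Figure D1:**
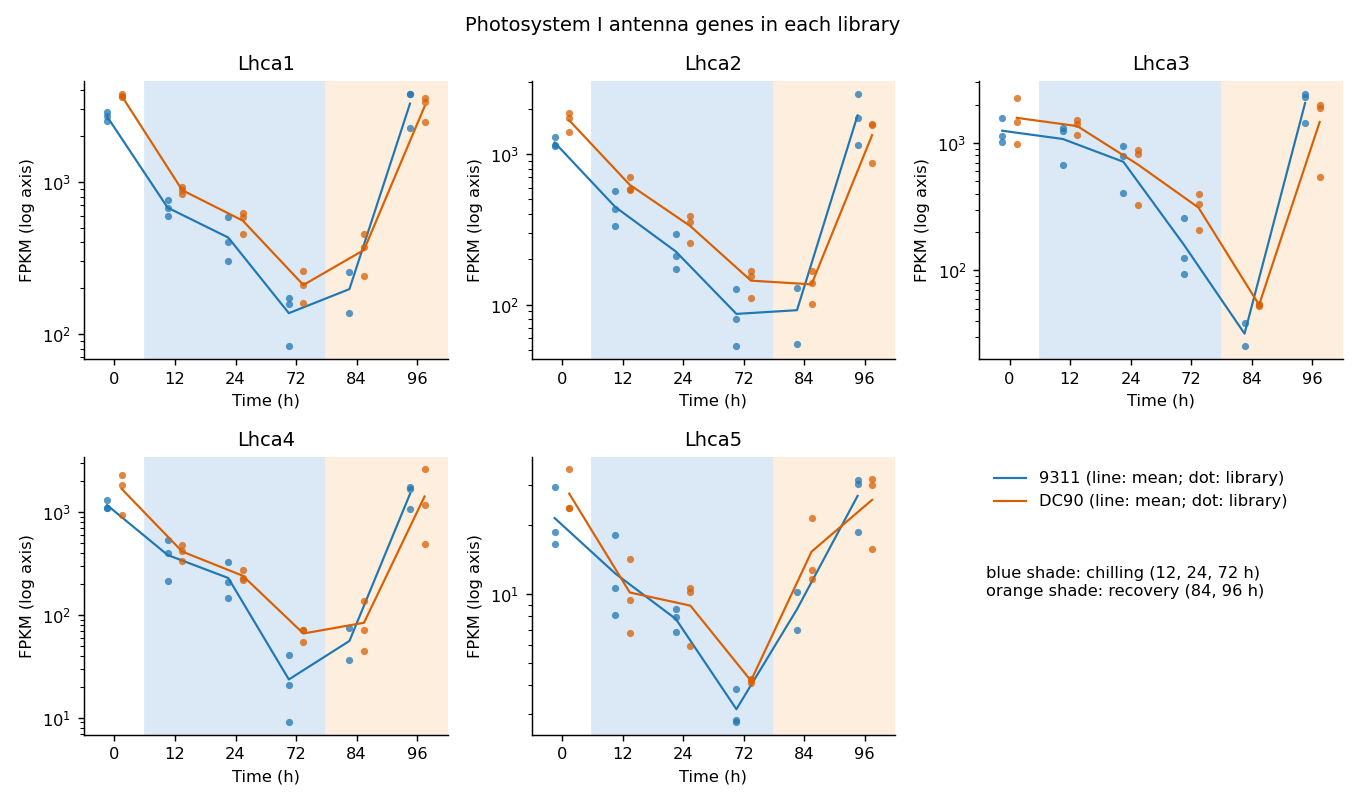
FPKM of each member (log axis) against time in h (timepoints evenly spaced), with a dot per library and a line through the group means for 9311 and DC90. All 5 members were lowest at 72 or 84 h and were back near the 0 h level at 96 h, and Lhca3 reached its lowest level at 84 h (25.3 to 38.5 FPKM in 9311).

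In the first 12 h of chilling, Lhca1 fell most clearly and Lhca3 showed no measurable change. The level of Lhca1 was 2498, 2693 and 2858 FPKM in the 9311 libraries at 0 h and 756, 596 and 675 FPKM at 12 h, and in DC90 it went from 3796, 3590 and 3639 FPKM to 826, 887 and 929 FPKM. In both genotypes every library at 12 h was below every library at 0 h. The log2 fold change of Lhca1 was −1.78 ± 0.34 in 9311 (adjusted p = 0.00041) and −1.93 ± 0.35 in DC90 (adjusted p = 0.00017). Lhca2 fell by a smaller amount, with −1.18 ± 0.39 in 9311 (adjusted p = 0.029) and −1.25 ± 0.40 in DC90 (adjusted p = 0.019). Lhca4, the partner of Lhca1, changed by −1.82 ± 0.55 in DC90 (adjusted p = 0.014), and its −1.38 ± 0.54 in 9311 did not pass the threshold (adjusted p = 0.062), although it passed with DESeq2, limma, upper-quartile factors or the replicate block (lowest adjusted p = 0.015).

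In 9311, Lhca3 went from 1023, 1580 and 1142 FPKM before chilling to 1246, 671 and 1309 FPKM, and the 2 groups of libraries overlapped. In DC90 it went from 2269, 988 and 1471 FPKM to 1409, 1149 and 1512 FPKM, again with overlap. Its log2 fold changes were 0.04 ± 0.50 in 9311 (adjusted p = 0.97, 95% interval −0.94 to 1.02) and −0.09 ± 0.50 in DC90 (adjusted p = 0.92, interval −1.07 to 0.89). Lhca5 fell by 1.30 ± 0.38 in DC90 on the log2 scale (adjusted p = 0.011), and its change of −0.59 ± 0.37 in 9311 was not called (adjusted p = 0.27).

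At 12 h, 2 of the 5 members were thus lower in 9311, where 11.3% of all tested loci were called lower, and 4 of 5 in DC90, where 14.5% were. No member was a DEG in either genotype at 12 h (1.11% and 1.51% of loci were DEGs with lower expression), although 3 members in 9311 and 4 in DC90 had an unadjusted p under 0.05 (DESeq2 also gave 0 DEGs, and limma on log2 FPKM gave 0 in 9311 and 1 in DC90). The Lhca1 calls held under every alternative (adjusted p at most 0.018 in 9311 and 0.0057 in DC90), while those of Lhca2, Lhca4 and Lhca5 were each lost when certain single libraries were left out. The 9311 count dropped to 1 without replicate 3 at 0 h or without replicate 2 or 3 at 12 h, and the DC90 count dropped to 1 without replicate 1 at 0 h and to 2 without replicate 1 or 2 at 12 h.

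By 24 h, by elapsed time at the same time of day as the control, 4 of 5 members were lower in each genotype, against 20.4% of tested loci in 9311 and 20.5% in DC90. Lhca1 stood at 583, 405 and 302 FPKM in 9311 and at 585, 456 and 625 FPKM in DC90, which gave log2 fold changes of −2.30 ± 0.35 (adjusted p = 1.1e-05) and −2.59 ± 0.35 (adjusted p = 2.8e-06). Lhca2 changed by −2.03 ± 0.40 in 9311 and −2.17 ± 0.41 in DC90, and Lhca4 by −2.01 ± 0.55 and −2.59 ± 0.56. Lhca5 changed by −1.15 ± 0.38 in 9311 (adjusted p = 0.016) and −1.46 ± 0.38 in DC90 (adjusted p = 0.0033), and the 9311 call was lost without replicate 3 at 0 h (adjusted p = 0.13). Lhca3 again was not called, with −0.43 ± 0.50 in 9311 (adjusted p = 0.52) and −1.09 ± 0.51 in DC90 (adjusted p = 0.086, lowest 0.033 with upper-quartile factors or limma).

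The DEG thresholds at 24 h were met by Lhca1 and Lhca2 in 9311, where 3.6% of loci were DEGs with lower expression, and by Lhca1, Lhca2 and Lhca4 in DC90, where 3.11% were. The 9311 count was 1 without replicate 3 at 0 h or without replicate 2 or 3 at 24 h. The DC90 count was 1 without replicate 2 or 3 at 24 h. In a fit of the 2 groups alone both counts were 0.

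After 72 h of chilling all 5 members were lower in both genotypes, and all 5 were DEGs in both. The lower calls held under every alternative, while the count of DEGs was 4 to 5 on leaving out a library and 0 in a fit of the 2 groups alone, in each genotype. The share of tested loci called lower was 24.9% in 9311 and 21.6% in DC90, and the share of DEGs with lower expression 6.9% and 5.06%. The median log2 fold change of the members was −3.77 in 9311 and −3.79 in DC90, against −0.05 and −0.07 over all tested loci. The family then took 0.0695% ± 0.0295 of the counted reads in 9311 and 0.123% ± 0.0308 in DC90. Since RNA came from whole plants, fewer green cells and less antenna RNA per cell cannot be told apart in these values.

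Lhca4 showed the widest fall at 72 h. Its FPKM was 1078, 1099 and 1306 in 9311 before chilling and 9.07, 20.8 and 40.8 after 72 h. In DC90 it was 2255, 923 and 1835 before chilling and 54.9, 71.8 and 70.8 after 72 h. No library at 72 h came near any library at 0 h, and the libraries of 9311 at 72 h differed among themselves more than those of DC90. The log2 fold change was −5.56 ± 0.65 in 9311 (47.0-fold lower, adjusted p = 1.9e-07) and −4.85 ± 0.62 in DC90 (28.9-fold lower, adjusted p = 1.3e-06).

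Lhca1 was at 82.7, 157 and 171 FPKM in 9311 and at 160, 210 and 259 FPKM in DC90 at 72 h, which was 18.9-fold and 20.9-fold below 0 h (log2 −4.24 ± 0.38 and −4.38 ± 0.38). Lhca2 was 13.6-fold lower in 9311 and 13.9-fold lower in DC90 (log2 −3.77 ± 0.44 and −3.79 ± 0.44). Lhca3, not called at 12 or 24 h, was now at 94.1, 125 and 257 FPKM in 9311 and at 207, 330 and 396 FPKM in DC90. Its log2 fold changes were −2.89 ± 0.54 (adjusted p = 9.3e-05) and −2.61 ± 0.53 (adjusted p = 0.00034). Lhca5 changed by −2.71 ± 0.40 and −2.94 ± 0.40, to 2.76 to 3.86 FPKM in 9311 and 4.1 to 4.25 FPKM in DC90.

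**Figure D2:**
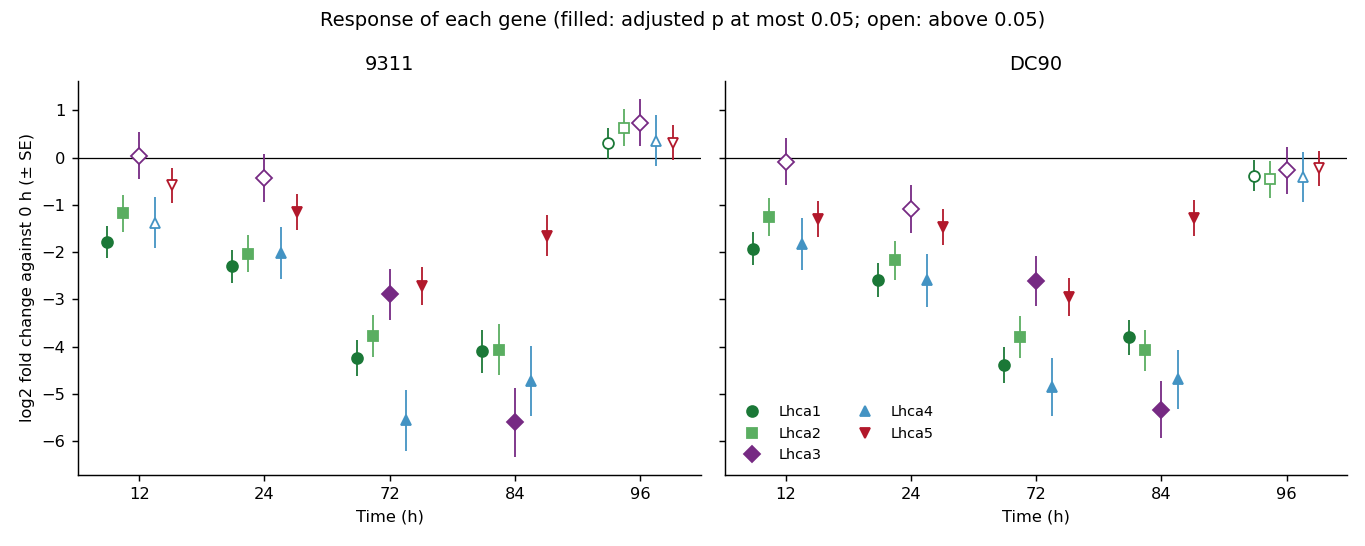
The log2 fold change of each member against 0 h of the same genotype (± SE) at each timepoint, with filled symbols for an adjusted p of at most 0.05. Lhca3 lay near 0 at 12 h (0.04 in 9311 and −0.09 in DC90) and lowest of the family at 84 h (−5.6 and −5.33), while Lhca5 was the least reduced at 84 h (−1.65 and −1.27).

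Between 24 and 72 h, which share the time of day, all 5 members fell further in 9311 (10.2% of tested loci were lower) and 4 of 5 in DC90 (7.22% were lower). In 9311 the step was largest for Lhca4, with −3.55 ± 0.59 (adjusted p = 2e-04), and it was −2.46 ± 0.53 for Lhca3 (adjusted p = 0.0021). In DC90 the step of Lhca3 was −1.52 ± 0.51 (adjusted p = 0.054), and those of the other members ran from −2.27 ± 0.56 for Lhca4 to −1.48 ± 0.38 for Lhca5. The 9311 calls were lost in a fit of the 2 groups alone (adjusted p from 0.065 to 0.098), and the DC90 count dropped to 1, Lhca1, without replicate 1 at 72 h.

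After 12 h of recovery the family was low against 0 h, where treatment and time of day cannot be told apart. The log2 fold changes of its members against 0 h ran from −5.6 to −1.65 in 9311 and from −5.33 to −1.27 in DC90. All 5 members were below 0 h in each genotype, against 5.84% of tested loci in 9311 and 9.07% in DC90. Lhca1 to Lhca4 were DEGs in both, against 0.963% and 2.2% of loci. In 9311, with 2 libraries, the count of DEGs was 1 without replicate 3 at 84 h, and in each genotype it was 0 in a fit of the 2 groups alone.

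From 72 to 84 h, when both temperature and time of day changed, Lhca3 was the only member called lower. It stood at 38.5 and 25.3 FPKM in 9311 and at 54.3, 53.9 and 52.7 FPKM in DC90 at 84 h, and all of these libraries were below all libraries of the same genotype at 72 h. The step from 72 to 84 h was −2.71 ± 0.63 in 9311 (6.57-fold lower, adjusted p = 0.001) and −2.72 ± 0.53 in DC90 (6.57-fold lower, adjusted p = 0.00025), where 23.9% and 21.4% of tested loci were called lower. Against the chilled plants at 12 h, sampled at the same time of day, Lhca3 was lower by 5.64 ± 0.73 on the log2 scale in 9311 (adjusted p = 2.9e-06) and by 5.24 ± 0.60 in DC90 (adjusted p = 2.6e-07).

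Lhca5 moved the other way. In 9311 its level was 2.81, 2.76 and 3.86 FPKM at the end of chilling and 10.2 and 6.98 FPKM after 12 h of recovery. In DC90 it went from 4.25, 4.1 and 4.21 FPKM to 12.7, 11.7 and 21.6 FPKM. Every library at 84 h was above every library at 72 h. The step was 1.68 ± 0.38 in DC90 (adjusted p = 0.0011), where 19.5% of loci were called higher, and 1.06 ± 0.41 in 9311 (adjusted p = 0.036), where 23.8% were. The 9311 call was lost without any 1 of replicates 1 and 2 at 72 h or 1 and 3 at 84 h (adjusted p up to 0.21 over all alternatives). Against 0 h Lhca5 was still lower at 84 h, by 1.65 ± 0.44 in 9311 (adjusted p = 0.017) and 1.27 ± 0.38 in DC90 (adjusted p = 0.025), and these calls too were lost without replicate 3 at 0 h or either library at 84 h in 9311, and without replicate 1 at 0 h or replicate 1 or 2 at 84 h in DC90. The DC90 call was also lost in a fit of the 2 groups alone and with limma on log2(FPKM + 0.1) (adjusted p up to 0.13 over all alternatives). Against the chilled plants at 12 h, at the same time of day by elapsed time, Lhca5 was not called different at 84 h in either genotype. Its log2 fold change was 0.04 ± 0.37 in DC90 (interval −0.69 to 0.76, adjusted p = 0.95). In 9311 it was −1.06 ± 0.43 (interval −1.9 to −0.22, adjusted p = 0.055). The 9311 value was called lower with DESeq2, with the replicate block or without replicate 2 at 12 h (lowest adjusted p = 0.015).

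The steps of the other members from 72 to 84 h were not called. Lhca1 was at 256 and 138 FPKM in 9311 and at 373, 240 and 456 FPKM in DC90 at 84 h, and its steps from 72 h of 0.14 ± 0.37 and 0.59 ± 0.34 were not called (adjusted p = 0.78 and 0.17). For Lhca2 the step was −0.29 in both genotypes (SE 0.44 in 9311 and 0.39 in DC90), with adjusted p = 0.60 and 0.58. For Lhca4 it was 0.83 ± 0.59 in 9311 (adjusted p = 0.25, interval −0.32 to 1.98) and 0.16 ± 0.53 in DC90 (adjusted p = 0.83). The 9311 step of Lhca4 was called with limma on log2(FPKM + 0.1) (1.40, adjusted p = 0.048) and without replicate 3 at 72 h (1.59, adjusted p = 0.043). Relative to 12 h of chilling, Lhca1, Lhca2, Lhca3 and Lhca4 were lower at 84 h in both genotypes (19.3% and 21.9% of loci were lower), by 1.87 to 5.64 on the log2 scale.

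After 24 h of recovery, all members had risen to levels that the test did not tell from those at 0 h. Lhca1 was at 2245, 3780 and 3775 FPKM in 9311 and at 3364, 2470 and 3536 FPKM in DC90. Lhca3 was at 1431, 2439 and 2313 FPKM in 9311 and at 1868, 541 and 1976 FPKM in DC90. For both genes the 9311 libraries at 96 h overlapped those at 0 h, while DC90 replicate 2 was the lowest library of its group for all 5 members. For Lhca1 in DC90, every library at 96 h was below every library at 0 h (3590 to 3796 FPKM), although the difference was not called. The log2 fold changes against 0 h ran from 0.30 to 0.74 in 9311 (adjusted p from 0.53 to 0.87) and from −0.46 to −0.23 in DC90 (adjusted p from 0.60 to 0.85).

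No member was called at 96 h, where edgeR called 1.66% of loci lower and 0.971% higher in 9311 and 4.74% lower and 1.6% higher in DC90 (DEGs with lower expression were 0.196% and 1.06%). None had an unadjusted p under 0.05, and DESeq2 and limma called 0 lower as well. The 95% intervals, such as −0.35 to 0.96 for Lhca1 in 9311 and −1.03 to 0.28 in DC90, do not exclude remaining differences of that size. Compared with 72 h, all 5 members rose in both genotypes (26.4% and 21.2% of loci rose). Lhca4 rose most, by 5.92 ± 0.66 in 9311 (60.5-fold) and 4.43 ± 0.61 in DC90 (21.6-fold), and Lhca3 rose by 3.63 ± 0.56 and 2.34 ± 0.53.

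**Figure D3:**
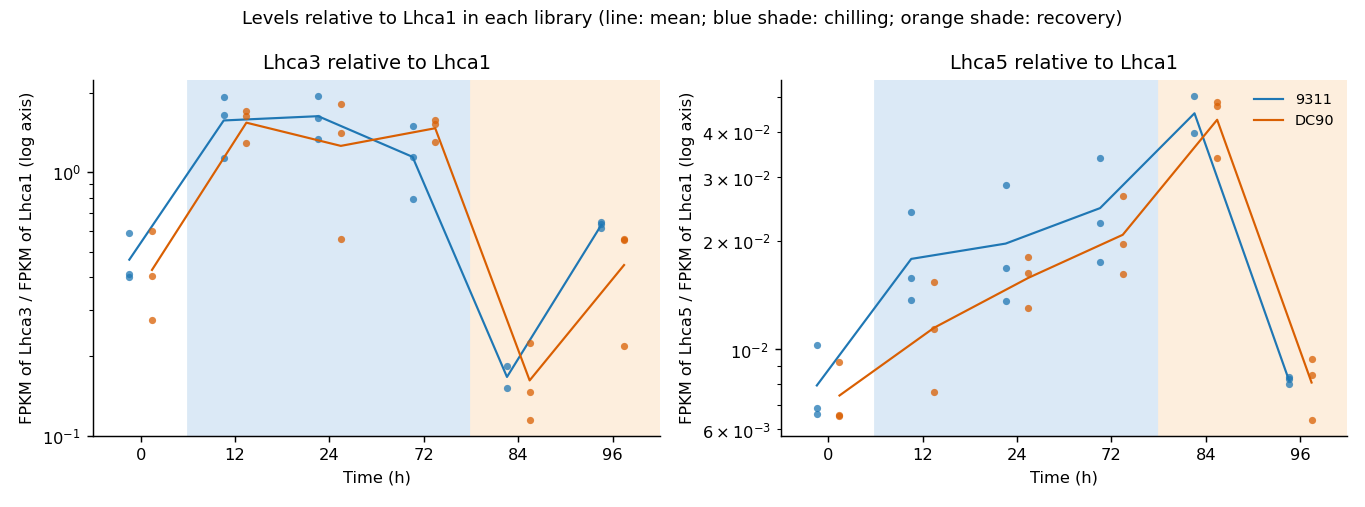
FPKM of Lhca3 (left) and of Lhca5 (right) divided by that of Lhca1 in the same library (log axes) against time in h, with a dot per library and a line through the group means. The Lhca3 to Lhca1 ratio ran from 0.793 to 1.5 in 9311 at 72 h and from 0.151 to 0.183 at 84 h, and the Lhca5 to Lhca1 ratio was highest at 84 h (0.0399 to 0.0505 in 9311).

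The composition of the family therefore differed between timepoints. Per length, Lhca3 had 0.466 ± 0.105 times the level of Lhca1 in 9311 at 0 h and 0.426 ± 0.163 times in DC90. During chilling the ratio was higher. It was 1.57 ± 0.41 in 9311 and 1.54 ± 0.223 in DC90 after 12 h, and 1.14 ± 0.354 and 1.47 ± 0.149 after 72 h. At 12 and 72 h no library of either genotype had a ratio as low as any library of the same genotype at 0 h, whereas at 24 h DC90 ranged from 0.559 to 1.81 and overlapped its 0 h libraries. At 84 h the ratio was 0.167 (range 0.151 to 0.183, n = 2) in 9311 and 0.162 ± 0.0567 in DC90, below every library at 0 h, and at 96 h it was 0.632 ± 0.0167 and 0.444 ± 0.195. These ratios are descriptions and were not tested.

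Lhca3 accordingly made up 38.0% ± 5.32 of the summed FPKM of the family in 9311 and 41.9% ± 3.07 in DC90 at 72 h, but 7.58% to 9.68% in 9311 and 8.81% ± 2.78 in DC90 at 84 h. Over 72 h of chilling the share of Lhca4 went from 18.4% ± 1.48 to 5.32% ± 1.53 (9311) and from 18.8% ± 4.80 to 9.13% ± 1.11 (DC90). Lhca5 made up 2.39% ± 0.548 of the family at 84 h in DC90, against 0.319% ± 0.0442 at 0 h.

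The order of the group means shows where levels could be separated. For Lhca1, Lhca2 and Lhca4, the 0 and 96 h groups of both genotypes took the top 4 places and overlapped their neighbours in that order, and the lowest of them lay above every library of the next group, DC90 at 12 h. For Lhca3 the same 4 groups ran into both 12 h groups without a gap, and the only neighbouring groups apart were 9311 at 72 h from DC90 at 84 h and the 2 groups at 84 h from each other. For Lhca5 the 84 h group of DC90 came directly after the 0 and 96 h groups with 15.3 ± 5.49 FPKM and overlapped the neighbouring groups, and both 72 h groups lay at the bottom, below the other groups and apart from each other.

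Over the 12 group means of log2 CPM, Lhca1, Lhca2 and Lhca4 followed nearly the same course. The Pearson correlation was 0.99 for Lhca1 with Lhca2 and 0.98 for Lhca4 with either of them. The structural partners Lhca1 and Lhca4 thus had 0.98, no higher than the value of either with Lhca2. Lhca2 and Lhca3 had 0.90, which was below the values of Lhca2 with Lhca1 and Lhca4. It was the highest value of Lhca3 with any member (0.82 with Lhca1 and 0.86 with Lhca4). The lowest correlation was 0.61, between Lhca3 and Lhca5. Each member against the mean of the others gave 0.983 for Lhca1, 0.991 for Lhca2, 0.814 for Lhca3, 0.991 for Lhca4 and 0.858 for Lhca5. These values describe 12 points that share timepoints, libraries and scaling, and carry no test.

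The loci whose course over the 12 groups was most like the mean course of the family were largely genes of the photosynthetic membrane and of chlorophyll synthesis. By Pearson correlation, the first was LOC_Os07g47640 (0.997), which the deposited annotation does not describe further. It was followed by LOC_Os08g06280, annotated as LSD1 (0.987), LOC_Os02g49680, the chloroplast calcium sensing receptor (0.984), LOC_Os01g56680, the photosystem II protein PsbW (0.98), and LOC_Os01g17170, the magnesium-protoporphyrin cyclase of chlorophyll synthesis (0.98). The next were LOC_Os09g30350 (WPP domain-interacting protein 2, 0.978), PsaH of photosystem I (LOC_Os05g48630, 0.977), LOC_Os06g15400 (CURT1A, which bends thylakoid membranes, 0.977), LOC_Os03g20700 (magnesium chelatase subunit ChlH, 0.975) and LOC_Os08g10020 (PsbR, 0.974). On log2(FPKM + 1), 8 of these 10 loci were again among the 10 most similar.

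With edgeR, no difference between 9311 and DC90 passed the test for these genes. None of the 30 differences between the genotypes, 5 members at 6 timepoints, passed the threshold, and they ran from −0.53 to 1.26 on the log2 scale (DC90 over 9311). The share of tested loci called was 0.597%, 0.375%, 0.823%, 5.21%, 0.675% and 0.658% from the first timepoint to the last. With edgeR 2 of the 30 had an unadjusted p under 0.05, which were Lhca4 at 72 h and Lhca1 at 84 h. DESeq2 called 0, and limma on log2 FPKM called 1.

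The largest difference was that of Lhca4 at 72 h, where the DC90 libraries (54.9 to 71.8 FPKM) all lay above those of 9311 (9.07 to 40.8 FPKM). It came to 1.26 ± 0.54 (2.4-fold, 95% interval 0.21 to 2.32, adjusted p = 0.17), and with limma to 1.66 ± 0.51 on log2(FPKM + 1) (adjusted p = 0.048) and 1.72 ± 0.52 on log2(FPKM + 0.1) (adjusted p = 0.042). At 0 h the differences were 0.57 ± 0.34 for Lhca1, 0.61 ± 0.39 for Lhca2, 0.48 ± 0.50 for Lhca3, 0.56 ± 0.53 for Lhca4 and 0.46 ± 0.37 for Lhca5 (adjusted p from 0.71 to 0.89). For Lhca1 every DC90 library at 0 h (3590 to 3796 FPKM) was above every 9311 library (2498 to 2858 FPKM). The interval of that difference, −0.09 to 1.23, covers both no difference and a difference of more than 2-fold.

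No difference in response between the genotypes was called either. The 25 interaction terms of genotype with a timepoint against 0 h ran from −1.09 to 0.70. None was called and none had an unadjusted p under 0.05, and 0 were called by DESeq2 or limma. The intervals, such as −0.77 to 2.18 for Lhca4 at 72 h and −2.4 to 0.38 for Lhca3 at 96 h, do not exclude differences of that size. Across all tested loci 0.0261%, 0.0218%, 0.152%, 0.836% and 0.0131% were called at 12, 24, 72, 84 and 96 h. In the F test over all timepoints, which called 1.5% of loci, the adjusted p of the members lay between 0.72 and 0.83.

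**Figure D4:**
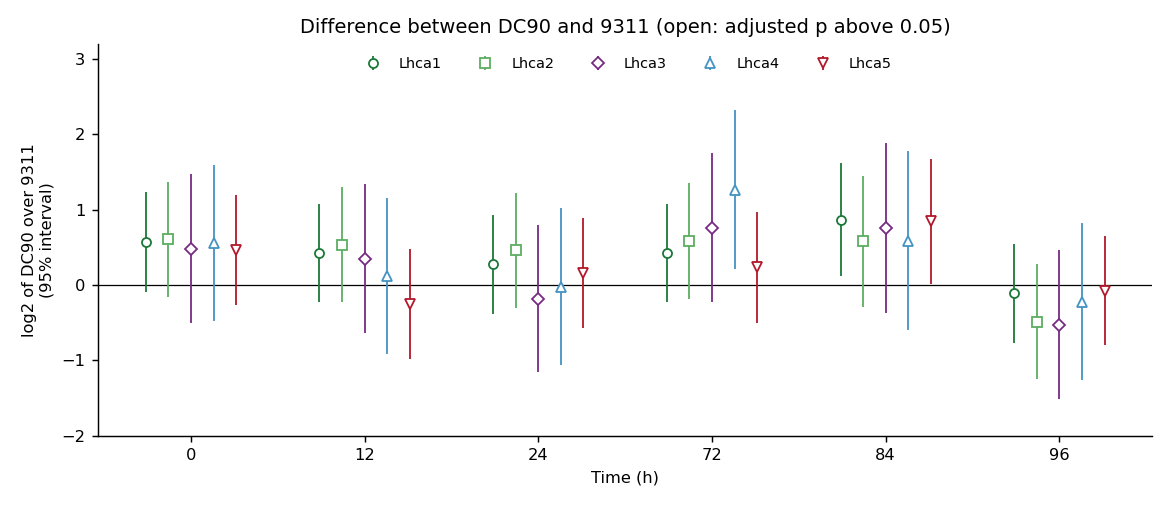
The log2 ratio of DC90 over 9311 for each member at each timepoint in h, with the nominal 95% interval (1.96 SE) and open symbols for an adjusted p above 0.05. All 30 symbols are open, the largest being Lhca4 at 72 h (1.26, interval 0.21 to 2.32).

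The antenna genes fell alongside other nuclear genes of the photosystems. Over all tested loci, 24.9% were called lower at 72 h in 9311 and 21.6% in DC90. Of 9 nuclear core subunits of photosystem I, 6 were lower at 72 h in each genotype, with a median log2 fold change of −2.8 in 9311 and −3.1 in DC90. Among them were PsaN, a subunit on the lumen side (LOC_Os12g08770, −3.92 ± 0.40 in 9311 and −3.80 ± 0.40 in DC90), PsaO (LOC_Os04g33830, −3.84 ± 0.45 and −3.70 ± 0.45) and PsaL (LOC_Os12g23200, −3.25 ± 0.47 and −2.96 ± 0.47). PsaE, which helps to dock ferredoxin (LOC_Os07g25430), did not pass the threshold at 72 h (−0.44 ± 0.45 and −0.99 ± 0.45). PsaD, which also docks ferredoxin (LOC_Os08g44680, −2.70 ± 1.36 and −3.10 ± 1.38), and PsaG (LOC_Os09g30340, 8.56 ± 4.22 and 9.51 ± 4.26) did not pass it either, and their libraries within a group differed by up to 3432 and 46733 times, against at most 4.8 times for any member.

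Of 8 photosystem II antenna loci, 7 were lower at 72 h in each genotype (medians −4.25 and −3.81, where 24.9% and 21.6% of tested loci were lower). Lhcb6 (LOC_Os04g38410, −4.84 ± 0.41 in 9311 and −4.39 ± 0.41 in DC90) and Lhcb2 (LOC_Os03g39610, −4.37 ± 0.40 and −3.70 ± 0.39) were among them. Of 4 genes of the electron carriers plastocyanin, ferredoxin and its reductase, 2 were lower in each genotype. These counts and medians include loci whose libraries within a group differed by up to 1872 times (Lhcb1a), 4918 times (Lhcb1b) and 624.0 times (ferredoxin), and Lhcb1c, which was at 0 in some libraries. At 84 h the counts were 7 of 9 core subunits in each genotype, 6 of 8 photosystem II antenna loci in 9311 and 7 in DC90, and 1 of 4 carrier genes in each. Of all tested loci, 5.84% in 9311 and 9.07% in DC90 were lower at 84 h. At 96 h none of these loci was called in either direction.

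From 72 to 84 h loci of the other lists moved in both directions. In 9311, 2 of 8 photosystem II antenna loci were called lower and 3 higher, and of 9 core subunits 2 were called lower and 1 higher, where 23.9% of all loci were lower and 23.8% higher. In DC90, 2 of the 8 antenna loci were called lower and 2 of the 9 core subunits higher, where 21.4% and 19.5% of all loci were. Lhcb2 fell by 2.38 ± 0.43 in 9311 (adjusted p = 8.6e-05) and 2.15 ± 0.37 in DC90 (adjusted p = 5.1e-05), and Lhcb3 (LOC_Os07g37550) by 1.32 ± 0.52 (adjusted p = 0.038) and 1.62 ± 0.46 (adjusted p = 0.0061). Lhcb6 rose by 1.53 ± 0.39 in 9311 (adjusted p = 0.0023) and its step in DC90 was 0.79 ± 0.35 (adjusted p = 0.077). PsaO changed by −1.72 ± 0.48 in 9311 (adjusted p = 0.0048) and −0.71 ± 0.41 in DC90 (adjusted p = 0.17). PsaN rose by 1.22 ± 0.39 in 9311 (adjusted p = 0.013) and 1.02 ± 0.36 in DC90 (adjusted p = 0.024). Another Lhca-type locus outside the 5, LOC_Os09g26810, an Lhca6-type gene, changed by −2.98 ± 0.42 at 72 h in 9311 and −3.43 ± 0.43 in DC90. It then rose by 2.90 ± 0.44 in 9311 (adjusted p = 9.5e-06) and 2.86 ± 0.42 in DC90 (adjusted p = 7e-06) by 84 h, the same direction as Lhca5, to 62.0 and 72.7 FPKM in 9311 and 52.8 to 118 FPKM in DC90.

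**Figure D5:**
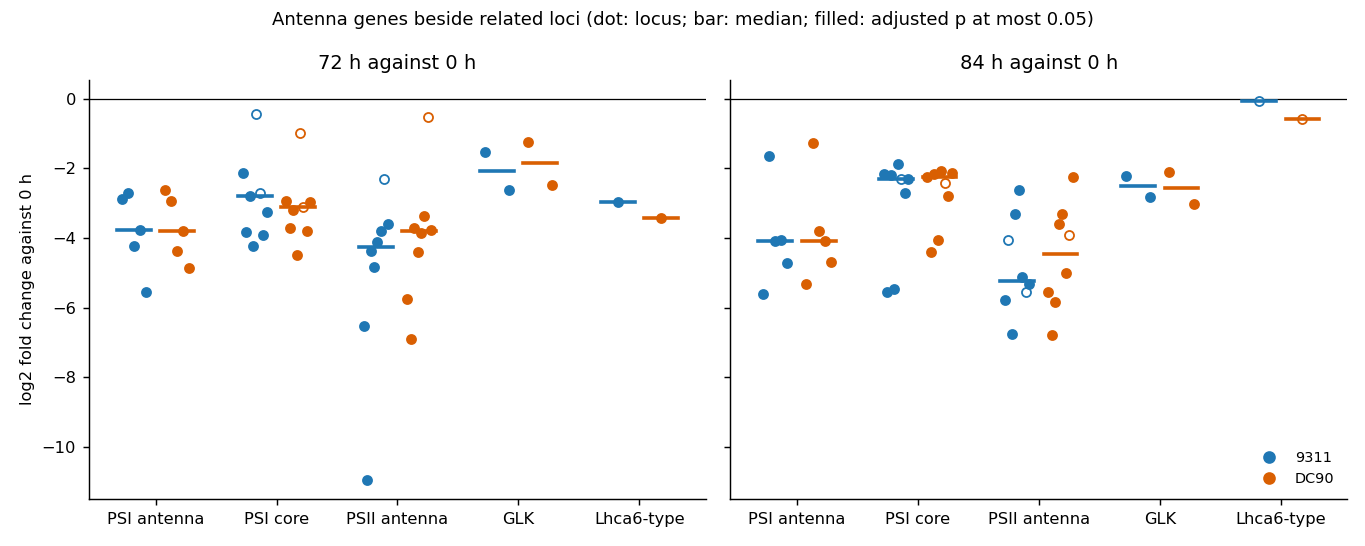
The log2 fold change against 0 h at 72 h (left) and 84 h (right) of the 5 antenna genes, photosystem I core subunits, photosystem II antenna loci, GLK genes and the further Lhca-type locus, with a dot per locus, a bar at the list median and filled dots for an adjusted p of at most 0.05. The antenna genes had medians of −3.77 and −3.79 at 72 h, and PsaG, whose libraries disagree, counts in the core median but has no dot.

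Both rice GLK genes, which encode activators of antenna and chlorophyll genes, were measured beside their known targets. In 9311, GLK1 (LOC_Os06g24070) ranged from 69.6 to 125 FPKM before chilling, from 85.5 to 125 after 12 h and from 9.22 to 27.4 after 72 h. It was not called at 12 h (0.30 ± 0.40 in 9311 and −0.43 ± 0.40 in DC90), and it was lower at 72 h (−2.63 ± 0.42 and −2.48 ± 0.42) and at 84 h (−2.83 ± 0.50 and −3.03 ± 0.43). GLK2 (LOC_Os01g13740) was lower at 72 h by 1.53 ± 0.48 in 9311 and 1.23 ± 0.48 in DC90 (adjusted p = 0.011 and 0.042). The part of the GLK genes in the antenna values was not tested.

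Clock genes and tissue markers also changed in these samples, not all in the direction of the antenna genes. The morning gene OsLHY (LOC_Os08g06110) was at 513 to 647 FPKM in 9311 before chilling, 128 to 241 after 12 h, 44.4 to 66.4 after 72 h and 3.3 to 3.95 after 12 h of recovery, its lowest point in both genotypes, as for Lhca3. The evening gene OsPRR1 (LOC_Os02g40510) was at 4.15 to 5.16 FPKM at 0 h and 47.4 to 54.9 at 72 h in 9311, although these samples share the time of day. Of 9 clock genes tested at 72 h, 1 was lower and 5 were higher in each genotype. Of all tested loci, 24.9% in 9311 and 21.6% in DC90 were called lower, and the share called higher is not given here. The median log2 fold change of the clock genes was 2.64 in 9311 and 2.82 in DC90, against −0.05 and −0.07 over all tested loci. The part of the clock genes in the antenna values was not tested.

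The leaf markers, 3 Rubisco small subunit loci and Rubisco activase, had a summed level of 10579 to 14418 FPKM before chilling, 175 to 1054 after 72 h and 529 to 1146 after 12 h of recovery in 9311, and of 7135 to 11942, 335 to 1217 and 795 to 4041 FPKM in DC90. All 4 were lower at 72 h in each genotype, where 24.9% of all tested loci in 9311 and 21.6% in DC90 were called lower. The root markers, of which 4 were tested, also had a lower sum at 72 h, with 105 to 154 FPKM at 0 h and 2.41 to 9.77 at 72 h in 9311 and 34.7 to 423 and 20.4 to 29.6 FPKM in DC90, and 4 of 4 and 3 of 4 were called lower. At 84 h no root marker was called in either genotype. The part of a shift between leaf and root RNA in the antenna values was not tested.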

How the data were processed

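The authors mapped paired-end RNA-Seq reads with Hisat2 to Release 7 of the Rice Genome Annotation Project, and deposited a count and an FPKM per locus and library. The deposited counts are whole numbers per locus, not scaled to depth, and the deposited FPKM values are scaled by the authors to locus length and depth. The submitters' processing notes name Bowtie 0.12.2 and mm8, a mouse build, which do not match the rice values. The counting tool is not given in the sources used here, and some low counts may be rounded-up estimates: PsaG has a count of 1 in 9311 libraries at 0 h with FPKM from 0.00162 to 0.00297, and its FPKM per CPM varied 111 times between libraries, against 1.11 to 1.23 times for the members. The library kit is named differently in the labels and in the methods, and neither states strand.

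Counts of 35 libraries (28004101 to 68927044 per library, TMM factors 0.759 to 1.299) were tested with edgeR 4.0.16 in R 4.3.3 (TMM, estimateDisp, glmQLFit, glmQLFTest), with 12 group means and no covariate, over the 22961 loci with a mean FPKM of at least 0.5. SE is the log2 fold change divided by the square root of the quasi-likelihood F, and intervals are 1.96 SE. Alternatives used DESeq2 1.42.0, limma 3.58.1, other scalings, filters and call rules, a replicate block, and each library left out in turn. Replicates were biological replicates of whole plants per the study's methods, and no source used here says whether they were separate plantings. Correlations used log2 TMM CPM with a prior count of 1.

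Named genes were the 5 members, the 10 most similar loci, and lists of photosystem I core, photosystem II antenna, carrier, GLK, clock, leaf and root genes. The members follow from gene identity, but this family and these lists were chosen for description with earlier results of these data known. Of 5 root markers, OsIRT1 fell under the filter. Metabolite data were not analysed here, and no sequence was printed because none was given. Tables and plots used Python 3.11.15, pandas 2.3.3, numpy 2.4.6 and matplotlib 3.10.9.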

Additional observations from a re-analysis of the deposited data

How the results depend on the processing

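All 5 members were lower at 72 h and none at 96 h under every alternative. In a fit of the groups of a contrast alone, which leaves few residual degrees of freedom, the members lower at 12 h in 9311 numbered 1, the DEGs at 24, 72 and 84 h numbered 0 in each genotype, the members changed from 24 to 72 h in 9311 numbered 0, and those changed from 72 to 84 h in 9311 numbered 1, also without the filter. DEGs at 24 h in 9311 numbered 1 with DESeq2 size factors, a mean FPKM of at least 1 or DESeq2. DEGs at 12 h in DC90 numbered 1 with upper-quartile factors or limma. With a fold of at least 1 on the log2 scale and an adjusted p of at most 0.05, DEGs numbered 2 at 12 h and 4 at 24 h in 9311 and 4 at 12 h in DC90. Limma called 1 genotype difference, Lhca4 at 72 h.

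Leaving out 1 library gave 1 to 2 members lower at 12 h in 9311 and 1 to 4 in DC90, 1 to 2 DEGs at 24 h in 9311 and 1 to 3 in DC90, 1 to 4 DEGs at 84 h in 9311, 1 to 3 members changed from 72 to 84 h in 9311 and 1 to 5 changed from 24 to 72 h in DC90. All values that changed sign were uncalled. Lhca3 at 12 h in 9311 was −0.13 with upper-quartile factors (which shift the median of all loci by −0.136), −0.01 with the replicate block and −0.25 with limma at either pseudocount, and Lhca2 from 72 to 84 h in 9311 was 0.04 with limma at either pseudocount. Leaving out 1 library, Lhca3 at 12 h ran from −0.24 to 0.35 in 9311 and from −0.36 to 0.31 in DC90, from −0.54 to 0.14 for Lhca3 and from −0.41 to 0.03 for Lhca5 at 96 h in DC90, from −0.30 to 0.48 for Lhca1 and from −0.96 to 0.16 for Lhca2 from 72 to 84 h in 9311, from −0.34 to 0.46 for Lhca4 over the same step in DC90, and from −0.31 to 0.40 for Lhca5 at 84 against 12 h in DC90. Without leaving out a library, 267 counts under other settings stayed within 1.5 times of the reported count, 8 were higher and 13 lower. The cause of these changes was not tested.

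No label says that a replicate number marks a shared batch. Pairs of libraries were correlated after the mean of its group was taken from each. Of 68 pairs with the same number 13 correlated over 0.1 (median 0.01), and of 136 pairs with different numbers 23 did (median −0.01). With the replicate block, Lhca4 at 12 h in 9311 and Lhca5 at 84 against 12 h in 9311 passed the threshold. The lowest count of a member was 132, and each group held 3 libraries or, in 9311 at 84 h, 2.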
